A study of Sus scrofa with 16 samples.

Results

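The genes described here are the enzymes and membrane carriers by which liver breaks down amino acids and turns their nitrogen into urea. Of 42 genes listed for these routes, 24 were measured in pig liver (Sus scrofa) by probes whose gene name, gene number, RefSeq accession or description gave the symbol. They were read by 71 of the 43603 probes on the array, against 4480 named genes with a usable probe in all. A further 6 enzymes (CPS1, ASS1, GPT, GLS2, BCAT2 and AASS) were described on the array only by their full protein name, through 11 probes. Their values are given and marked as such, but they stay out of every count of members. The other 12 (ASL, SLC25A15, TAT, HGD, FAH, KYNU, HAAO, CBS, MCCC1, MCCC2, PRODH and PRODH2) had no probe assigned and were not analysed here. All 24 measured members passed the filter on dim probes, and only 1 probe of SDS did not.

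Each of 16 pigs gave 1 liver RNA sample, which was labelled with the dye Cy3 and read on its own 1-colour Agilent array. The pigs came from strain RFIneg (low residual feed intake) and strain RFIpl (high residual feed intake), with 8 of each, all weighing 20 kg and with free access to feed. Residual feed intake is the feed an animal eats above or below what its growth and upkeep predict. The comparison asks how liver transcripts differ between strains selected on it, and each direction of selection is represented by a single strain, so an effect of selection and other differences between the strains cannot be told apart.

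Ammonia released from amino acids is toxic, and liver cells bind it in the urea cycle, which starts in mitochondria and ends in the cytosol with the release of urea by arginase. Aminotransferases move nitrogen between amino acids and supply glutamate and aspartate, which feed the cycle. Most other amino acids are broken down in liver too, while the first step of branched-chain breakdown takes place mainly outside it.

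A level is the log2 processed signal minus the 75th percentile of its array, and a change is the RFIneg mean minus the RFIpl mean on that log2 scale. A gene is represented by its tested probe of highest mean level, and probes of different genes are not compared for level. Tests are limma's, p-values were adjusted by Benjamini-Hochberg across the 30099 probes tested, and the threshold was 0.05. Each of 4 slides held 2 RFIneg and 2 RFIpl pigs. Between 28579 and 34983 probes per array were well above background, and the number of arrays limits the precision. The scanner software marked 5 arrays for evaluation because of spot noise, all 5 of RFIpl pigs. Its noise measure was 6.97% ± 0.502 (SD, n = 8) in RFIneg and 8.04% ± 0.658 (SD, n = 8) in RFIpl. The 6 measured hepatocyte markers of 9 listed were high in both strains, with mean levels of 9.32 and 9.29 for ALB (albumin), and their summed linear level ran from 2007 to 2690 in RFIneg and from 1832 to 2489 in RFIpl. In whole liver, fewer cells of a type and less RNA per cell cannot be told apart.

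The probes below are shown because the results turn on them, either as the member with the smallest p (SLC7A2) or because probes of 1 gene could be set against each other. Each is the 60-base sequence in the deposited array files, and capitals mark the stretch that a pair of probes shares.
SLC7A2: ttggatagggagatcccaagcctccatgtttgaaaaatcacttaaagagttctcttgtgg
BCKDHA, both lower-level probes: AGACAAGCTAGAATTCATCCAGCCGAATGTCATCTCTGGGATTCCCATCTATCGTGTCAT
HAL, probe of highest level: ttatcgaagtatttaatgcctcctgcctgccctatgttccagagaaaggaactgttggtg
HAL, overlapping probe a: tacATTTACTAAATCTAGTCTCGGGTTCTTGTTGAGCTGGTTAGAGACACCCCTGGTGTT
HAL, overlapping probe b: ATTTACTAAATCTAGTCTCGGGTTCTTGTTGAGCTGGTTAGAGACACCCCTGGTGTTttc
HAL, separate probe: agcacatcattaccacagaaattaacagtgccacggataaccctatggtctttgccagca
GLUD1, overlapping probe a: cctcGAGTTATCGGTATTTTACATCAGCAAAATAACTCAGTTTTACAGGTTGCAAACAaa
GLUD1, overlapping probe b: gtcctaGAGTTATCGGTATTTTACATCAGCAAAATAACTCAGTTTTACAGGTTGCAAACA
GLUD1, separate probe c: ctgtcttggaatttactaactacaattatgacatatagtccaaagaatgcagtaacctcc
GLUD1, separate probe d: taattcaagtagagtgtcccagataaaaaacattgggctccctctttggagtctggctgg
The 2 lower-level BCKDHA probes have the same 60 bases, the HAL pair shares 57 and the GLUD1 pair 54. A pair of BCKDHB probes shares 55 and a pair of OAT probes 51, not shown, so the probes of such a pair are repeat readings and not independent ones.

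None of the 24 members passed the threshold between strains, and the share among all named genes was 0%. Over all probes 3 passed, 0.00997%. At an unadjusted p under 0.05, 1 member was higher in RFIneg (SLC7A2), where 2.59% of all named genes were, and 0 were lower, where 2.34% of all named genes were. The mean was higher in RFIneg for 17 members and lower for 7, against 54.6% of named genes higher, and the median change was +0.08 for the members against +0.02 for all named genes. Without the 5 marked arrays 12 members were higher and the median was -0.0078, and over the other settings and pigs left out the count ran from 13, without RFIneg pig 3, to 20. The 6 measured hepatocyte markers all had higher means in RFIneg, and their median change was +0.08 as well. Of the markers of pericentral hepatocytes, 2 were higher and 5 lower, with a median of -0.02. The median of the members was thus not set apart from that of the hepatocyte markers. No member had strains whose values did not overlap, which held for 0.0223% of named genes. Apart from SLC7A2 the changes ran from -0.22 to +0.22, with a median SE of 0.19 over the 24 members and a smallest unadjusted p of 0.061.

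**Figure D1:**
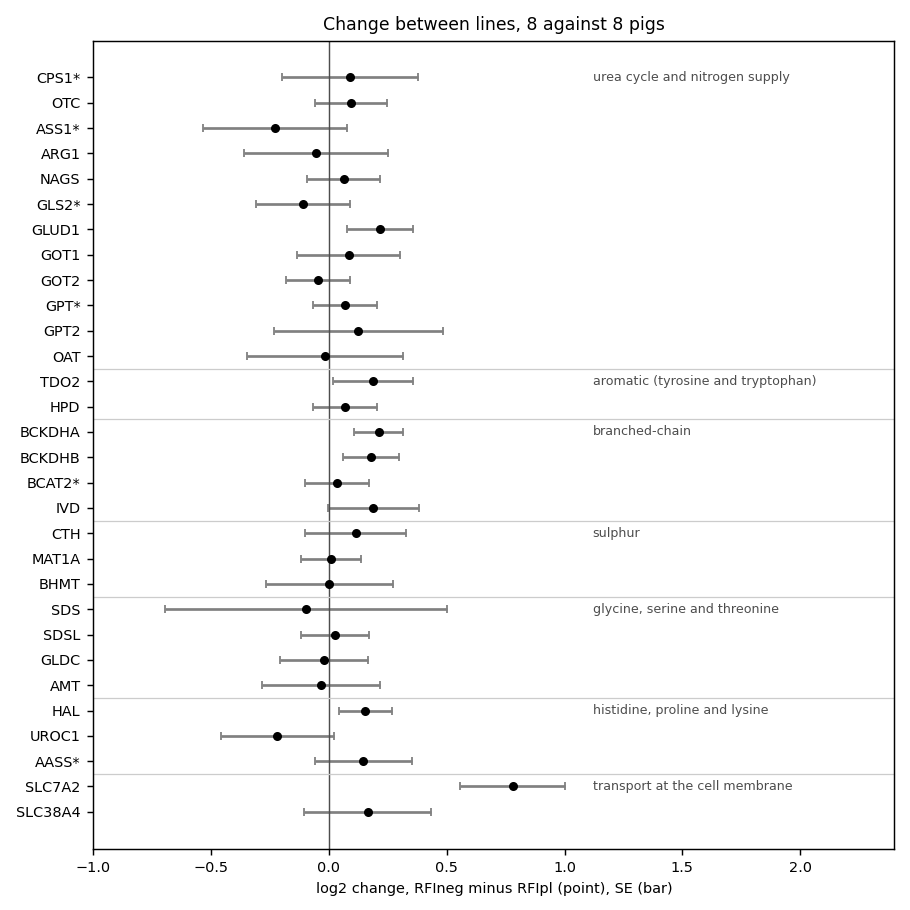
Change between strains for the 24 members and the 6 enzymes described by full name only (asterisk), grouped by route; the x axis is the log2 change, RFIneg minus RFIpl, points are the fitted change and bars its SE. SLC7A2 stands at +0.78, and all others lie between -0.23 and +0.22.

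SLC7A2, a carrier that brings arginine, lysine and ornithine into cells, had the largest change. Its level was 2.78 at the lowest, 3.29 at the median and 4.31 at the highest among RFIneg pigs, and 1.96, 2.62 and 3.15 among RFIpl pigs. All 8 RFIneg pigs were above the RFIpl mean, but the strains overlapped, with 3 RFIneg pigs below the highest RFIpl pig. The change was +0.78 ± 0.224 (SE), 1.72-fold, with an unadjusted p of 0.00279 and an adjusted p of 0.493, so it did not pass the threshold. It was +0.23, +1.21, +1.04 and +0.63 within the 4 slides. Across 17 other settings it lay between +0.71 and +0.93, with adjusted p from 0.302 to 0.99995, and with each pig left out between +0.64 and +0.86. Only 1 probe read the gene. Of 4 measured Kupffer cell markers of 9 listed, 2 had higher and 2 had lower means in RFIneg, with a median of -0.05. They were CD14 at +0.35 (unadjusted p 0.0117, adjusted p 0.708), CD163 at +0.02, C1QA at -0.13 and VSIG4 at -0.31, and the summed level of the 4 ran from 59.6 to 137 in RFIneg and from 62.9 to 115 in RFIpl. The part of these cells in the SLC7A2 difference was not tested. SLC38A4, a sodium-coupled carrier of neutral amino acids, had a change of +0.16 ± 0.270 (SE).

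The urea cycle enzymes did not separate the strains. CPS1, named by its full name, binds ammonia as carbamoyl phosphate in mitochondria. Its level ran from 4.59 over a median of 6.07 to 6.50 in RFIneg and from 5.05 over 5.70 to 6.63 in RFIpl. The change was +0.09 ± 0.288 (SE, adjusted p 0.998), with its 5 probes between +0.03 and +0.20, and the strains overlapped over most of their range. OTC, which joins carbamoyl phosphate to ornithine, ran from 5.39 over 5.75 to 6.52 in RFIneg and from 5.31 over 5.73 to 6.15 in RFIpl. Its change was +0.10 ± 0.153 (SE). ASS1, which adds aspartate to citrulline and was also named by its full name, ran from 2.93 over 4.35 to 4.88 and from 3.51 over 4.30 to 5.53. Its change was -0.23 ± 0.305 (SE), and the highest pig was RFIpl. ARG1, the arginase that releases urea, ran from 4.35 over 5.77 to 6.82 in RFIneg and from 4.92 over 6.001 to 6.50 in RFIpl. Its change was -0.06 ± 0.305 (SE) on this probe and from -0.52 to -0.06 over its 5 probes, with none past the threshold. NAGS, which makes the activator of CPS1, ran from 2.73 over 3.02 to 3.50 and from 2.47 over 3.04 to 3.40, with a change of +0.06 ± 0.154 (SE). The spread between pigs of 1 strain was thus wider than the difference of the strain means for each of these 5 enzymes.

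Among the enzymes that supply nitrogen to the cycle, GLUD1 (glutamate dehydrogenase, which frees ammonia from glutamate) was read by 7 probes, each with a higher mean in RFIneg. The probe of highest level ran from 5.51 over 5.80 to 6.33 in RFIneg and from 5.15 over 5.67 to 5.99 in RFIpl, and its change was +0.22 ± 0.141 (SE, unadjusted p 0.142). The 7 changes ran from +0.19 to +0.42. The separate probes c and d printed above had the highest of them, +0.42 ± 0.158 (SE, unadjusted p 0.0161, adjusted p 0.744) and +0.41 ± 0.177 (SE, unadjusted p 0.0333, adjusted p 0.893), and neither passed the threshold. Over the 16 pigs the 21 pairs of GLUD1 probes correlated with r from 0.75 to 0.98. The overlapping pair differed by 0.46 on average, with an SD of the difference of 0.05 over arrays, so the same stretch gave levels offset by the probe but nearly parallel from pig to pig.
The aminotransferases GOT1 (aspartate, cytosolic), GOT2 (aspartate, mitochondrial) and GPT2 (alanine, mitochondrial) changed by +0.08 ± 0.219, -0.05 ± 0.136 and +0.13 ± 0.358 (SE), and the other probe of GOT2 by +0.12 ± 0.201 (SE). GPT, the cytosolic alanine form named by its full name, was at +0.07 ± 0.136 (SE), and GLS2, the liver glutaminase named likewise, at -0.11 ± 0.200 (SE). OAT, which links ornithine to glutamate, was read by 10 probes, some overlapping, with changes from -0.20 to +0.04 and was at -0.02 ± 0.330 (SE) on its probe of highest level. GPT2 was the most variable gene of this route, from -1.85 over -0.33 to 0.63 in RFIneg and from -1.37 over -0.70 to 0.52 in RFIpl. Over the 8 members of the route, 5 had higher and 3 had lower means in RFIneg, with a median of +0.07.

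**Figure D2:**
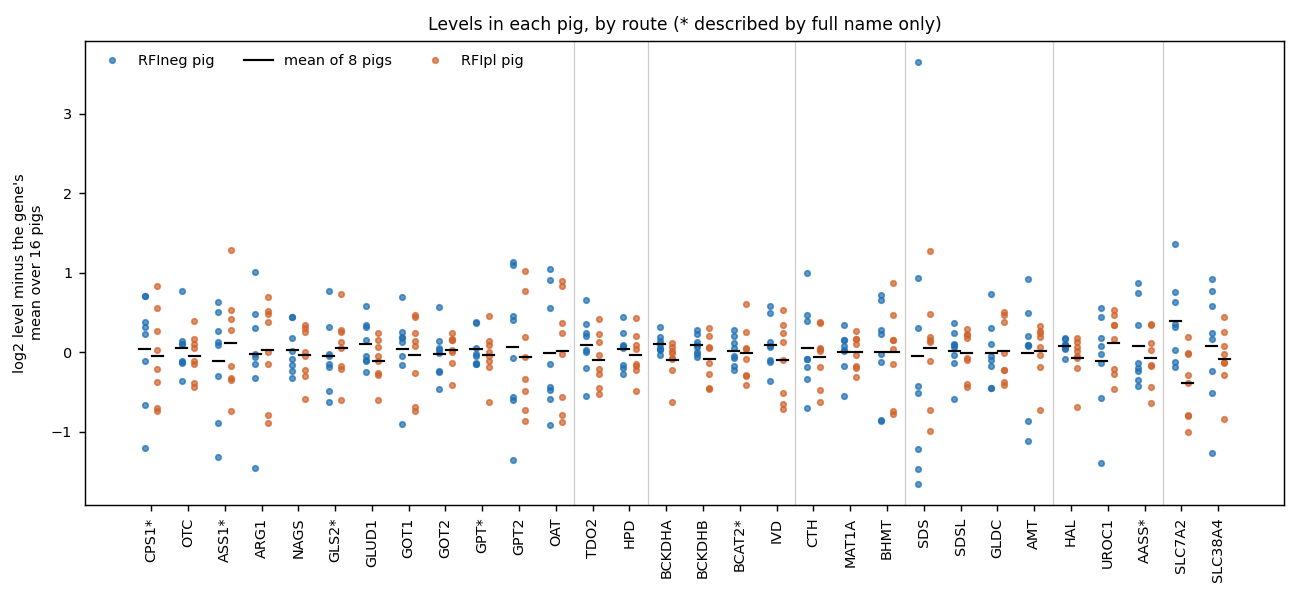
Log2 level in each of the 16 pigs minus the mean of that gene over all pigs, by route, for the 24 members and the 6 enzymes described by full name only (asterisk); each point is a pig and black lines are means of 8 pigs. The strains overlap for every gene, and the SDS value of RFIneg pig 1 lies farthest from its gene's mean.

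In the branched-chain route all 3 members had higher means in RFIneg, with a median of +0.19, and none passed the threshold. BCKDHA and BCKDHB encode the alpha and beta parts of the E1 enzyme in the complex that commits branched-chain keto acids to breakdown. BCKDHA ran from 1.66 over 1.77 to 2.02 in RFIneg and from 1.07 over 1.66 to 1.81 in RFIpl. All 8 RFIneg pigs were above the RFIpl mean, and the RFIpl pigs reached lower values. The change was +0.21 ± 0.105 (SE, unadjusted p 0.0612, adjusted p 0.942), with +0.40, +0.23, +0.22 and -0.01 within the 4 slides. The 2 probes of identical sequence gave +0.20 and +0.23, and their difference had an SD of 0.06 over arrays. Between pigs of a strain these 2 probes had SDs from 0.22 to 0.33. BCKDHB ran from 3.46 over 3.60 to 3.80 and from 3.06 over 3.48 to 3.82. Its change was +0.18 ± 0.119 (SE, unadjusted p 0.154), with all 8 RFIneg pigs above the RFIpl mean and 4 probes, of which 2 overlap, between +0.07 and +0.18. BCKDHA and BCKDHB correlated over the pigs with r of 0.65 (permutation p 0.00635, adjusted over 5 pairs 0.0106), but with a rho of only 0.36 (permutation p 0.178, adjusted 0.296). The r was 0.52 without the 2 pigs farthest from the BCKDHA median, and 0.02 among RFIneg and 0.67 among RFIpl pigs. IVD, the isovaleryl-CoA dehydrogenase of leucine breakdown, ran from 0.51 over 0.95 to 1.46 and from 0.16 over 0.89 to 1.41. Its change was +0.19 ± 0.193 (SE) on 1 probe and -0.03 ± 0.101 (SE) on the other. BCAT2, the mitochondrial branched-chain aminotransferase named by its full name, was at +0.03 ± 0.137 (SE), and its 2 probes correlated with r of -0.22 over the pigs.

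Of the aromatic route 2 of 7 listed members were measured. TDO2, the first enzyme of tryptophan breakdown, ran from 5.97 over 6.64 to 7.18 in RFIneg and from 5.99 over 6.39 to 6.94 in RFIpl, and its change was +0.19 ± 0.170 (SE). HPD, which acts on the keto acid of tyrosine, ran from 3.66 over 4.002 to 4.38 and from 3.45 over 3.88 to 4.37, with a change of +0.07 ± 0.135 (SE) and up to +0.24 on its other 2 probes. The strains overlapped over most of their range for both enzymes.

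The sulphur route had a median change of +0.0076 over 3 members, none of which passed the threshold. BHMT, which remethylates homocysteine with betaine, ran from 5.005 over 5.98 to 6.59 in RFIneg and from 5.10 over 5.96 to 6.74 in RFIpl, and its change was +0.0017 ± 0.269 (SE). CTH, which makes cysteine from cystathionine, ran from 4.59 over 5.20 to 6.29 and from 4.66 over 5.31 to 5.66, and its change was +0.11 ± 0.215 (SE). MAT1A, which makes S-adenosylmethionine in liver, ran from -0.34 over 0.27 to 0.56 and from -0.10 over 0.25 to 0.48, and its change was +0.0076 ± 0.127 (SE).
The submitted file numbers fell into 2 runs of 8 with 4 pigs of each strain in each, and the sources used here do not say what the runs stand for. BHMT was 6.21 ± 0.393 (SD, n = 8) in the first run and 5.53 ± 0.505 (SD, n = 8) in the second, a difference of -0.68 ± 0.219 (SE). Its adjusted p of 0.0850 missed the threshold, which 24 named genes (0.536%) passed as higher and 58 (1.29%) as lower in the second run. GLDC differed by +0.45 ± 0.154 (SE, adjusted p 0.0980), and none of the 24 members passed.

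In the glycine, serine and threonine route, SDS had the widest spread between pigs of any member. SDS encodes serine dehydratase, which turns serine into pyruvate and ammonia. Its level ran from -1.34 over -0.15 to 3.97 in RFIneg and from -0.68 over 0.46 to 1.58 in RFIpl. RFIneg pig 1 held the value of 3.97, and the next RFIneg pig was at 1.25. The second tested SDS probe followed it over the pigs with r of 0.99 (permutation p 1e-05, the smallest these permutations can give). The change between strains was -0.10 ± 0.598 (SE) on the probe of highest level, and -0.62 there without RFIneg pig 1. On the second probe it was +0.05 ± 0.570 (SE). SDSL, a related enzyme, was at +0.03 ± 0.145 (SE), and only 4 of the 10 pairs of its 5 probes correlated past the threshold, with r from 0.13 to 0.95. AMT and GLDC, both parts of the glycine cleavage system, changed by -0.03 ± 0.249 and -0.02 ± 0.186 (SE), and a second, far dimmer probe of AMT by -0.31 ± 0.221 (SE). Over the 16 pigs GLDC and AMT had an r of 0.18 (permutation p 0.520, adjusted 0.520), with 0.68 among RFIneg pigs and -0.81 among RFIpl pigs, and the difference of these was not tested.

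In the histidine and lysine routes the probes of HAL disagreed. HAL encodes histidine ammonia-lyase, the first enzyme of histidine breakdown, and all 4 of its probes are named by the same transcript in the array files. The probe of highest level was nearly flat in RFIneg, from 1.16 over 1.33 to 1.42, and ran from 0.55 over 1.23 to 1.43 in RFIpl, with a change of +0.16 ± 0.112 (SE). Overlapping probe b ran from -0.78 over -0.13 to 1.07 in RFIneg and from -1.43 over -0.43 to 0.0048 in RFIpl, with a change of +0.55 ± 0.262 (SE, unadjusted p 0.0509, adjusted p 0.916). Overlapping probe a and the separate probe gave +0.47 ± 0.277 and +0.43 ± 0.236 (SE). Over the 16 pigs the pair a and b correlated with r of 0.99, and the separate probe, which has no long stretch in common with them, correlated with r of 0.91 and 0.92 (permutation p 1e-05 for each, adjusted over 134 probe pairs 1.81e-05). The probe of highest level correlated with these 3 at r of 0.04, 0.05 and 0.08 (permutation p 0.857, 0.841 and 0.762). The value reported for HAL therefore depends on the probe, and the cause was not tested. UROC1, the next enzyme after HAL, ran from 4.44 over 5.86 to 6.38 in RFIneg and from 5.37 over 6.08 to 6.36 in RFIpl. Its change was -0.22 ± 0.240 (SE), and its 3 probes were all lower in RFIneg. AASS, the first enzyme of lysine breakdown, named by its full name, was at +0.15 ± 0.207 (SE).

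**Figure D3:**
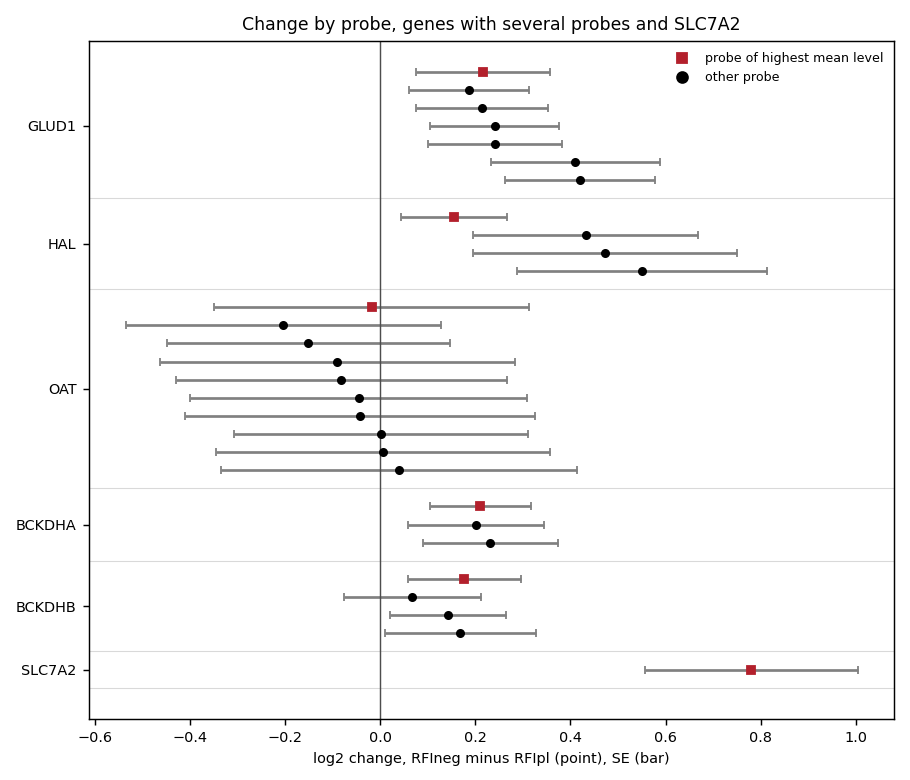
Log2 change, RFIneg minus RFIpl, for every tested probe of GLUD1, HAL, OAT, BCKDHA and BCKDHB and the only probe of SLC7A2; points are fitted changes, bars their SE, and red squares mark the probe of highest mean level. The 7 GLUD1 probes lie between +0.19 and +0.42, and the HAL probe of highest level, +0.16, lies below the other 3.

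The spread between pigs of 1 strain was wide for many members. The pooled within-strain SD had a median of 0.40 over the 24 members and of 0.31 over all named genes, and 11 members lay above the 75th percentile of named genes. SDS (SD 1.32, percentile 99.2), GPT2 (0.78, percentile 95.4), OAT (0.72, percentile 93.5) and ARG1 (0.66, percentile 91.2) lay above the 90th. BCKDHA had the smallest SD, 0.19, at percentile 13.6. HAL followed with 0.20 on its probe of highest level, and BCKDHB with 0.22. The other HAL probes were more variable, with SDs from 0.57 to 0.71 in RFIneg and from 0.44 to 0.47 in RFIpl. The low rank of HAL therefore holds only for the probe used. Within the urea cycle and nitrogen supply the spread was uneven, with OTC (percentile 48.8), NAGS (percentile 49.4), GLUD1 (percentile 40.1) and GOT2 (percentile 37.2) below the middle of named genes.

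Part of this spread was shared between enzymes. The relation of CPS1 and ASS1 was the closest of 5 pairs that had been listed for the purpose and could be computed, with r of 0.80 (permutation p 0.00016, adjusted over the 5 pairs 0.000800) and rho of 0.76 (permutation p 0.00097, adjusted 0.00485). It was 0.66 without the 2 pigs farthest from the CPS1 median, 0.87 and 0.78 in the 2 runs of file numbers, and 0.91 after strain and slide means were removed. CPS1 and OTC, whose enzymes act one after the other, had an r of only 0.28 (permutation p 0.299, adjusted 0.374). GPT and GPT2, the 2 alanine aminotransferases, ran against each other with r of -0.66 (permutation p 0.00441, adjusted 0.0106) and rho of -0.59 (permutation p 0.0173, adjusted 0.0433). Without the 2 pigs farthest from the GPT median r was -0.62, and within the 2 runs it was -0.48 and -0.82.

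All 435 pairs of the 30 measured enzymes and carriers were then computed, a step chosen after values had been seen. Of them 18 had an r of 0.7 or more, 4.14% against 1.5% of all pairs of named genes, and 4 had an r of -0.7 or less, 0.92% against 0.997%. These same pairs, and no others, passed the threshold by permutation with adjustment over the 435, and by rho 8 of the 18 and 1 of the 4 did so. CPS1 and GOT1 stood in 6 of the 18 positive pairs each, ARG1, CTH and GPT2 in 5 each, ASS1 and SDSL in 3 each, BHMT in 2 and OAT in 1. Each gene entered with its probe of highest level only. Of the 10 pairs of CPS1 probes 7 correlated past the threshold, with r from 0.33 to 0.98, so the CPS1 relations hold for the probe used. CPS1 and GOT1 had the highest r, 0.89 (permutation p 1e-05, adjusted 0.00217), with a rho of 0.89 (permutation p 2e-05, adjusted 0.00435). It was 0.81 without the 2 farthest pigs, 0.95 and 0.88 in the 2 runs and 0.90 with strain and slide means removed. ARG1 with GOT1, CTH with GOT1 and CPS1 with GPT2 followed with r of 0.88, 0.88 and 0.86 (adjusted permutation p 0.00348, 0.00217 and 0.00348). All 18 stayed at 0.5 or more with strain and slide means removed and under quantile normalisation, and 17 did so in both runs. The exception within the runs was ASS1 with OAT, at 0.28 in the first run and 0.87 in the second. OTC, GLUD1, NAGS and the members of the aromatic, branched-chain and histidine routes were in none of the 18. GPT was in 3 of the 4 negative pairs, with CPS1 at -0.80, BHMT at -0.75 and GOT1 at -0.70, and the remaining one was GLDC with OAT at -0.72. The counts within the runs above cover the positive pairs only. Between the runs GLDC differed by +0.45 ± 0.154 (SE) and OAT by -0.71 ± 0.291 (SE), second minus first. The part of the runs in the relation of GLDC and OAT was not tested.

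**Figure D4:**
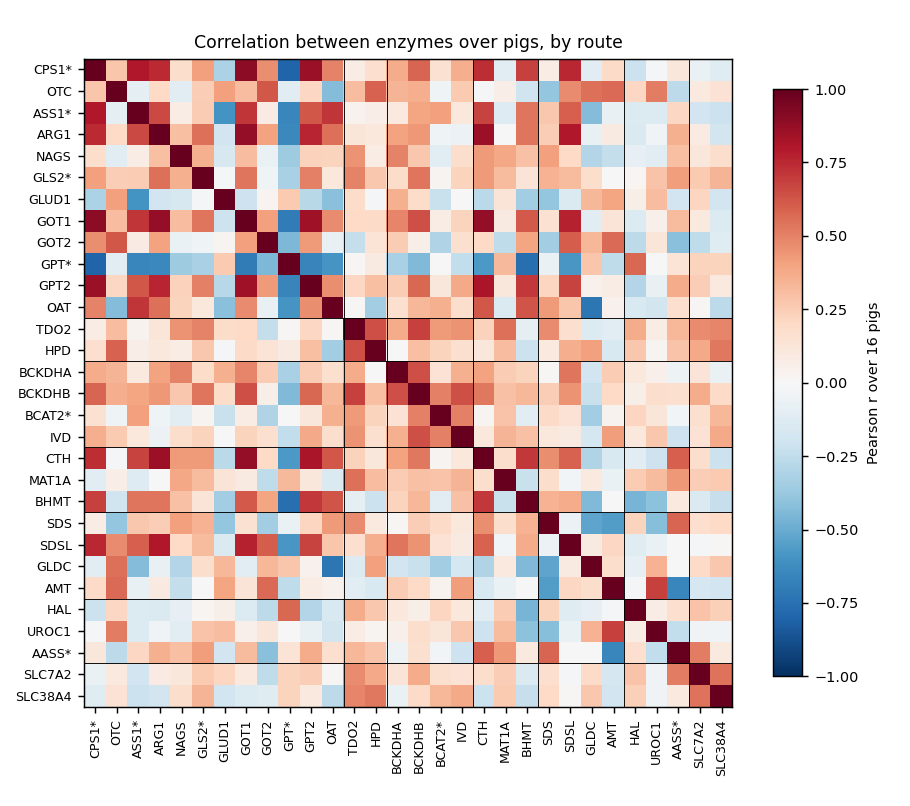
Pearson r over the 16 pigs for each pair of the 24 members and the 6 enzymes described by full name only (asterisk), ordered by route, red for positive and blue for negative r. CPS1, ASS1, ARG1, GOT1, GPT2, CTH and SDSL form the red block across routes, and GPT is blue against them.

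RFIneg pig 7 had the lowest level of CPS1, GOT1, ARG1, CTH, GPT2, ASS1 and SDSL alike, while the pigs next above it differed from gene to gene. CPS1 was 4.59 in RFIneg pig 7, 5.13 in RFIneg pig 6, 5.05 in RFIpl pig 2 and 5.10 in RFIpl pig 6, and at 5.41 or more in the other pigs. ARG1 was 4.35, 5.66, 5.01 and 4.92 in the same 4 pigs, in that order, with RFIneg pig 5 also low at 5.49, while GPT was 4.91, 4.91, 4.63 and 4.99 there against a mean of 4.53 over all pigs. These CPS1 levels are from its probe of highest level. A lower-level CPS1 probe gave 3.50, 3.87 and 3.62 for RFIneg pig 6, RFIpl pig 2 and RFIpl pig 6. These lay above its mean of 3.41, while RFIpl pig 1 was low there at 2.72. On another, RFIpl pig 6 was at 4.68, above its mean of 4.48. On the remaining CPS1 probes all 4 pigs were below the mean. Both strains thus had pigs with low CPS1, but which pigs these were, apart from RFIneg pig 7, depended on the probe. The brightness of the array moved with the CPS1 and GPT levels, though not in each of these 4 pigs. The 75th percentile of signal, which was subtracted from each array, ran from 320.0 to 508 intensity units. It was 328 in RFIneg pig 7, 336 in RFIneg pig 6 and 320.0 in RFIpl pig 6, but 429 in RFIpl pig 2. Over the 16 arrays its log2 correlated with CPS1 at r of 0.75 (permutation p 0.00082, adjusted over 120 relations with array measures 0.0492) and with GPT at r of -0.78 (permutation p 0.00033, adjusted 0.0396). The other genes of the positive pairs also had positive r with it, none past the threshold after adjustment. They were BHMT (0.70), ASS1 (0.70), GOT1 (0.67), CTH (0.57), ARG1 (0.53), OAT (0.51), GPT2 (0.50) and SDSL (0.46). For CPS1 the rho was 0.60 (adjusted permutation p 0.391), r without the 2 farthest arrays was 0.58, and r was 0.28 in the first run and 0.86 in the second. For GPT the rho was -0.71 (adjusted permutation p 0.297), r without the 2 farthest arrays was -0.62, and r was -0.44 in the first run and -0.91 in the second. With this measure taken out of both genes, 17 of the 18 positive pairs stayed at 0.5 or more, CPS1 with GOT1 at 0.80, and ASS1 with GOT1 went to 0.47, while CPS1 with GPT went from -0.80 to -0.52. The part of array brightness in these relations was otherwise not tested.

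**Figure D5:**
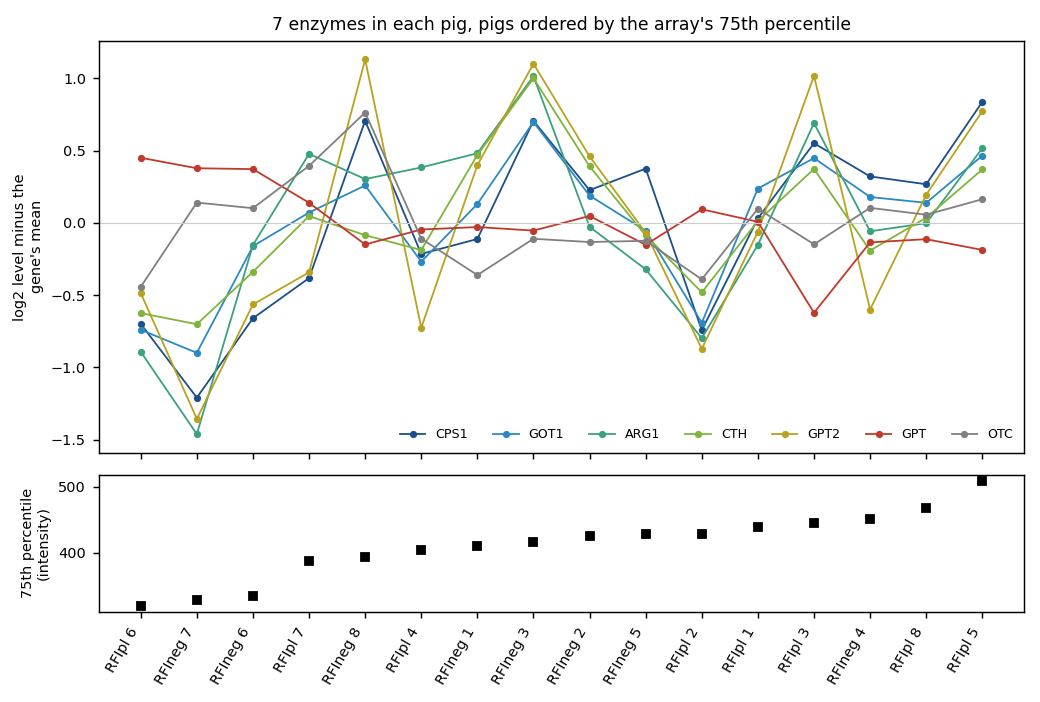
Upper panel, log2 level of 7 enzymes minus each gene's mean in every pig; lower panel, the 75th percentile of signal of the pig's array in intensity units, by which pigs are ordered from left to right. CPS1, GOT1, ARG1, CTH and GPT2 rise and fall together, GPT runs against them, and the 3 arrays of lowest percentile (320.0 to 336) belong to pigs of both strains.

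Other genes of the same pathways were read as counts. Of 88 listed, 39 were measured, 26 with a higher and 13 with a lower mean in RFIneg, a median of +0.06 and none past the threshold. Among all named genes 54.6% had a higher mean in RFIneg, the median was +0.02 and 0% passed. At an unadjusted p under 0.05 none was higher, where 2.59% of all named genes were, and 1 was lower, where 2.34% were. The lower one was GLUL (glutamine synthetase, which binds ammonia into glutamine). GLUL was at 5.67 ± 0.310 (SD, n = 8) in RFIneg and 6.17 ± 0.456 (SD, n = 8) in RFIpl, and all 8 RFIneg pigs were below the RFIpl mean. Its change was -0.49 ± 0.187 (SE, unadjusted p 0.0171, adjusted p 0.752). Of the 7 measured markers of pericentral hepatocytes, GLUL among them, 2 had higher and 5 had lower means in RFIneg, with a median change of -0.02. SLC7A1, another carrier of arginine and lysine, was at -0.28 ± 0.144 (SE, unadjusted p 0.0654), and PHGDH, the first enzyme of serine synthesis, at -0.31 ± 0.188 (SE, unadjusted p 0.117). Of 18 listed regulators of these routes 16 were measured and none had an unadjusted p under 0.05.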

How the data were processed

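The authors deposited 1 scanner file per array, read with Agilent Feature Extraction 10.7.3.1 per the file headers, and a series table. Per the file headers, the processed, mean and background signals are intensities on a linear scale. The table that the authors deposited holds log2 values. The submitters' processing notes name R 2.10.0.

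From the processed signal, outlier spots were set to missing, log2 was taken, the 75th percentile of each array was subtracted and repeated spots were averaged. Probes well above background on at least 8 of 16 arrays were tested (30099; 13504 were too dim). Of 43603 probes 12144 carried exactly 1 symbol. RFIneg and RFIpl were compared with limma 3.58.1 in R 4.3.3, which was also tested on simulated data. Relations over pigs were tested two-sided with 100000 permutations (numpy 2.4.6 in Python 3.11.15), and figures were drawn with matplotlib 3.10.9.

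The pigs are separate animals, and the files sort by slide and by run of file numbers. The rule for genes named with values covered the urea cycle enzymes and any member called. Per route it covered the members with the smallest p and with the largest and smallest spread. It also covered the 3 other pathway genes with the smallest p. The remaining measured members and full-name enzymes are given with their change and SE as well. HAL, GLUD1, BCAT2, SDSL and CPS1 probes, all pairs of enzymes and the arrays' brightness were added after values had been seen. The members and lists were chosen with earlier results of these data known. Coordinates are not given, as no genome was used.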

Additional observations from a re-analysis of the deposited data

Results flagged for a closer look

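In 60 checks, 1 for each of the 30 measured genes in each strain of 8 pigs, 3 pigs stood apart from the other 7 of their strain by Dixon's criterion, and chance gives about 1 in 20 such checks. OTC was at 6.52 in RFIneg pig 8, with the next pig at 5.89. BCKDHA was at 1.07 in RFIpl pig 6, with the next pig at 1.47, and the change between strains went from +0.21 to +0.14 without this pig. HAL was at 0.55 in RFIpl pig 3 on its probe of highest level, with the next pig at 1.05. The other 3 HAL probes did not follow this probe. SDS in RFIneg pig 1, at 3.97, did not meet the criterion because the other RFIneg pigs were spread widely too.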

How the results depend on the processing

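No member passed the threshold in any of the 17 other settings or with any of the 16 pigs left out. Of the 30 measured genes 12 kept their direction throughout, SLC7A2, BCKDHA, BCKDHB, GLUD1, HAL, IVD, TDO2, SLC38A4, UROC1, ASS1, GLS2 and AASS. HAL was at only +9.2e-05 in its lowest setting, and the lower-level IVD probe was at -0.03 in the main setting. The number of members higher in RFIneg at an unadjusted p under 0.05 was 2 with cyclic loess, where BCKDHA joined SLC7A2 (p 0.0453), and 1 to 2 over the pigs left out, with BCKDHA joining without RFIpl pig 4 (p 0.0484) or RFIpl pig 8 (p 0.0401). The number lower was 1 with array noise as a covariate, UROC1 at -0.67 (p 0.0434). The median change over the members ran from +0.0078 to +0.14 over the pigs left out, and was +0.02 with normexp, +0.12 with noise as a covariate and -0.0078 without the marked arrays. The replicate numbers of the 2 strains were not taken as pairing the pigs. The correlations of same-numbered deviations were all positive, from 0.047 to 0.40 with 2 under 0.1. Same-numbered pigs share the run of file numbers, so these values do not settle whether the pigs are paired. With the replicate number as a block 0 members passed, 1 was higher at an unadjusted p under 0.05 and the median was +0.08. The unadjusted p of SLC7A2 was 0.000817 with that block and 0.00279 without it. Each of the 5 listed relations stayed on its side of the threshold with strain and slide means removed.

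Changes that were small in the main setting turned sign between settings, none of them called. Not all were small after the turn, the largest being SDS at +0.74 with array noise as a covariate. With normexp at an offset of 50 the sign turned for BHMT (-0.091), CPS1 (-0.0024), GOT1 (-0.013), HPD (-0.040), SDS (+0.0043) and SDSL (-0.071). With quantile normalisation the sign turned for BHMT (-0.044) and SDSL (-0.011). With median scaling the sign turned for AMT (+0.0019), GLDC (+0.013) and OAT (+0.018). With cyclic loess the sign turned for BHMT (-0.036) and SDSL (-0.0032). In the authors' series table the sign turned for BHMT (-0.00024). With array weights the sign turned for BHMT (-0.20), GLDC (+0.12) and MAT1A (-0.011). With array noise as a covariate the sign turned for CPS1 (-0.11), GOT1 (-0.081), HPD (-0.051), OAT (+0.13), OTC (-0.23), SDS (+0.74) and SDSL (-0.17). Without the 5 marked arrays the sign turned for BCAT2 (-0.061), CPS1 (-0.036), CTH (-0.019), GOT1 (-0.047), HPD (-0.10), OTC (-0.10) and SDSL (-0.22). With the mean over a gene's probes the sign turned for GOT2 (+0.037) and SDSL (-0.056). Over the pigs left out the sign turned for AMT (-0.17 to +0.12), ARG1 (-0.20 to +0.15), BCAT2 (-0.022 to +0.12), BHMT (-0.11 to +0.13), CPS1 (-0.012 to +0.27), CTH (-0.021 to +0.22), GLDC (-0.13 to +0.049), GOT1 (-0.015 to +0.22), GOT2 (-0.13 to +0.018), GPT (-0.014 to +0.14), GPT2 (-0.027 to +0.33), MAT1A (-0.041 to +0.088), NAGS (-0.017 to +0.12), OAT (-0.17 to +0.11), OTC (-0.0071 to +0.16), SDS (-0.62 to +0.13) and SDSL (-0.034 to +0.11). The cause of these turns was not tested. With 8 pigs per strain and a median SE of 0.19, changes of the size of most members here could not be told from 0, and the marked arrays are all RFIpl, so array noise differs between the strains.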
